A study of Mus musculus with 35 samples.

Results

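The 10 contractile genes Acta2, Actg2, Tagln, Cnn1, Myl9, Tpm1, Tpm2, Myh11, Des and Cald1 mark smooth muscle cells and myofibroblasts, the contractile form of the fibroblast. They were followed on 35 mouse microarrays of induced pluripotent stem (iPS) clones, embryonic stem (ES) cells and the somatic cells that the clones came from. Every probe whose gene name in the scanner files is one of these 10 symbols was taken, which gave 19 of the 41174 gene probes and 10 of the 27962 gene names on the array. Results for a gene rest on its brightest probe, judged by the mean level of the iPS and ES arrays, and other probes of the 5 genes that have more than 1 are given beside it.

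The study asked which adult cell gives the better iPS clones. Bone marrow mesenchymal stem cells (PaS, sorted as CD45-Ter119-PDGFRa+Sca-1+), bone marrow osteo-progenitors (OP, sorted as CD45-Ter119-PDGFRa-Sca-1-) and tail tip fibroblasts (TTF) came from 6-week-old transgenic mice in which Nanog drives GFP and puromycin resistance, an allele that all clones therefore share. The cells were given retroviruses for Oct3/4, Sox2 and Klf4 together with c-Myc (4F) or without it (3F) and a DsRed control virus, and GFP-positive, DsRed-negative clones were grown on mitomycin-treated SNL feeder cells, a fibroblast line. There were 6 groups of 5 clones, here 4F-PaS, 3F-PaS, 4F-OP, 3F-OP, 4F-TTF and 3F-TTF, with 1 array per clone. The p-values of tests between groups rest on the spread between these clones, which may share a transduction or a mouse. The difference between the 2 ES lines, which form 1 more group of the fit, also enters that spread. The lines EB-3 and RF8 gave 1 ES array each, and each source cell type gave 1 array, so that neither has a replicate.

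In smooth muscle and in myofibroblasts, actin and myosin filaments slide along each other to shorten the cell. Acta2 and Actg2 encode the smooth muscle actins, Myh11 the smooth muscle myosin heavy chain and Myl9 the regulatory light chain that is phosphorylated when the cell contracts. Tpm1 and Tpm2 encode tropomyosins that lie along the actin filament, Cald1 caldesmon and Cnn1 calponin, both of which bind actin and restrain myosin, Tagln an actin cross-linking protein, and Des the intermediate filament desmin of muscle cells. Serum response factor (Srf), with its partners of the myocardin family, binds CArG boxes near many of these genes, and transforming growth factor beta turns fibroblasts towards this state. Mouse ES cells in their undifferentiated state are not contractile cells, and feeder fibroblasts are a second cell type in such cultures.

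A level here is the log2 fluorescence of a probe minus the 75th percentile of all gene probes on that array, so that 0 is the level of a bright probe and 1 unit is 2-fold. Levels are compared between arrays for 1 probe at a time, never between genes, since probes differ in brightness. A gene was called changed between groups of clones when limma's moderated test over all 27623 tested probes gave a Benjamini-Hochberg adjusted p under 0.05 and the difference was at least 2-fold. Of the 10 genes, all passed the filter on dim probes, and none was saturated. Myh11 was not well above background in 4F-OP #2 and 4F-TTF #2, and Des was not well above background in TTF cells.

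Several arrays stood apart before any contractile gene was compared. Nanog, the pluripotency gene on which the clones were selected, was not well above background in 4F-OP #1, 4F-OP #3 and 4F-TTF #1. In 4F-OP #2 it was detected at -3.30, with Pou5f1 at -1.96 and Sox2 at -2.04, and its summed level of pluripotency genes was the lowest of the 30 clones. The array labelled TTF held blood cell genes, with Ptprc, which encodes CD45, at 4.14 and the macrophage gene Emr1 at 6.74, against Ptprc at -5.74 and -8.63 in PaS and OP cells. The array labelled OP, sorted as negative for both sort markers, had Pdgfra at 1.58 and Ly6a, which encodes Sca-1, at 3.54, against 0.98 and 5.58 in PaS cells. The paper expanded the cells after sorting and before transduction. It does not state whether the RNA of the source cell arrays was taken before or after that expansion. The fibroblast collagen Col1a1 was at 3.13 in RF8 ES cells and at -4.62 in EB-3 ES cells. Clones lay on 8 slides in 1 scan session and no slide held both 4F- and 3F-clones of 1 source. EB-3 and the 3 source cells shared another slide and RF8 had its own.

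**Figure D1:**
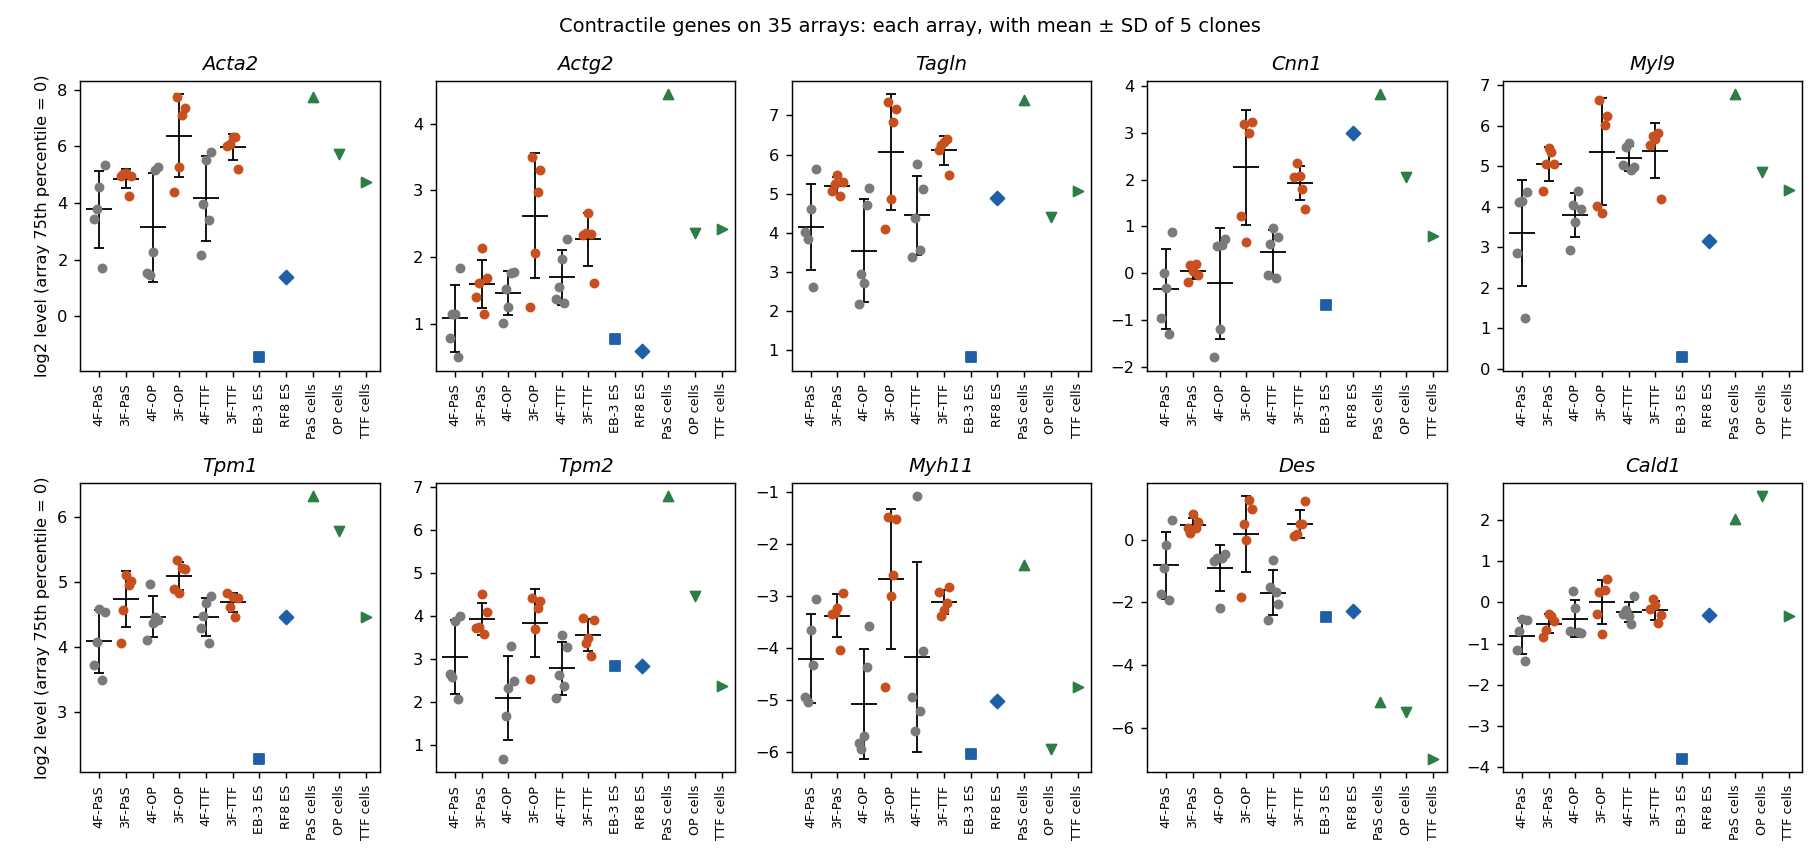
Level of each contractile gene (log2, array 75th percentile set to 0) on each of the 35 arrays, with 4F-clones in grey, 3F-clones in orange, ES cells in blue and source cells in green, and bars at the mean ± SD of 5 clones. The lowest group mean was a 4F-group and the highest a 3F-group for 10 of 10 genes, and Des in the 3 source cells lay below every clone.

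Most contractile genes were higher in clones made without c-Myc. Averaged over the 3 sources, the difference of 3F- minus 4F-clones was positive for 10 of 10 genes and was called for 7, namely Acta2, Tagln, Des, Cnn1, Myh11, Myl9 and Tpm2. Of all tested probes, 4.27% were called higher in 3F-clones in this comparison. The median difference of the 10 genes was 1.30, with a range of 0.25 to 2.05, against a median of 0.03 over all probes. Actg2 (0.75, adjusted p = 0.0057) and Tpm1 (0.51, adjusted p = 0.027) passed the p threshold but not the 2-fold minimum, and Cald1 (0.25, adjusted p = 0.43) passed neither. Averaging over sources does not remove the slides: with the slide as a random block, which estimated a correlation of 0.33 within slides, Des alone was still called, at 1.60, and the adjusted p of the other 6 rose to between 0.071 and 0.16 with differences of 1.12 to 1.95, close to those without the block. Without the 3 clones that lacked Nanog signal, an analysis chosen after seeing the data, 4 of the 7 were still called, namely Acta2, Tagln, Cnn1 and Des. Without 4F-OP #2 as well, 2 were, Cnn1 (1.12) and Des (1.32), and Acta2 was at 1.19 (limma, adjusted p = 0.063). Of 5 pluripotency genes tested, 1 was called in a 3F minus 4F comparison, Zfp42 in OP-iPS clones. Their summed level was -0.08 to 5.79 in 4F-OP and 3.65 to 5.15 in 3F-OP, 1.77 to 5.18 in 4F-TTF and 3.78 to 4.88 in 3F-TTF, and 4.87 to 6.23 in 4F-PaS and 3.93 to 5.40 in 3F-PaS clones, and its part in the contractile levels was not tested.

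Within single sources, 6 genes were called higher in 3F-clones of OP (3.94% of all probes were called higher), with a median difference over the 10 genes of 1.65. With the slide as a random block none of these 6 was called, and their adjusted p lay between 0.080 and 0.16. In TTF-iPS clones 1 gene, Des, was called higher (3.97% of all probes were), with a median of 0.92, and with the slide as a random block none was. In PaS-iPS clones limma called none of the 10 higher (0.00724% of all probes were) and none lower, with 4 at an unadjusted p under 0.05, although all 10 differences were positive with a median of 0.86. The sources were not shown to differ from each other in this: the test of the difference between the OP and PaS effects called none of the 10 (1 at an unadjusted p under 0.05, Cnn1 at 2.10 with adjusted p = 0.167), against 0.648% of all probes. The TTF and PaS effects (0.583% of all probes) and the OP and TTF effects (0% of all probes) gave no member at an unadjusted p under 0.05 by limma.

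**Figure D2:**
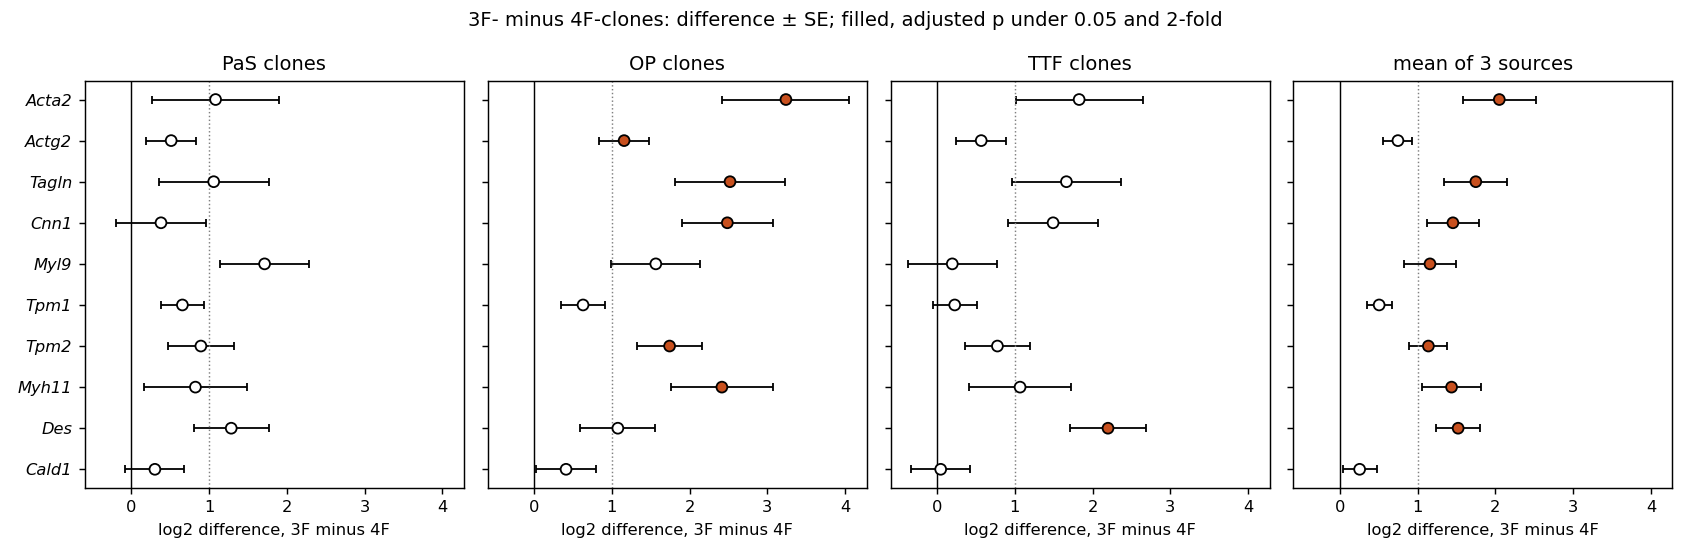
Difference of 3F- minus 4F-clones (log2) for each contractile gene in PaS-, OP- and TTF-iPS clones and in the mean of the 3 sources, with its standard error. Filled points were called (adjusted p under 0.05 and at least 2-fold, dotted line at 1), 6 in OP clones, 1 in TTF clones, none in PaS clones and 7 in the mean. With the slide as a random block Des in the mean was the 1 call left.

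Acta2, the smooth muscle alpha-actin that defines the myofibroblast, had the largest difference of the 10 genes in OP-iPS clones and in the mean of the 3 sources. Its levels in 4F-OP #1 to #5 were 1.53, 1.46, 2.26, 5.17 and 5.27, and in 3F-OP #1 to #5 they were 4.38, 7.75, 5.26, 7.12 and 7.37. In OP-iPS clones the groups overlapped, because 4F-OP #4 and #5 exceeded 3F-OP #1, while 3F-OP #2, #4 and #5 stood above every 4F-OP clone. The difference was 3.24 with a standard error of 0.82, a 9.43-fold change (limma, adjusted p = 0.017).

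The same order of groups held for Acta2 in the other sources with smaller differences. In 4F-TTF #1 to #5 its levels were 2.15, 3.96, 5.50, 3.41 and 5.80, against 6.01, 6.08, 6.33, 6.33 and 5.22 in 3F-TTF #1 to #5, a difference of 1.83 (limma, adjusted p = 0.15). In 4F-PaS #1 to #5 they were 3.43, 3.80, 4.56, 1.72 and 5.35, against 4.97, 5.02, 5.07, 4.26 and 4.97 in 3F-PaS #1 to #5, a difference of 1.08 (limma, adjusted p = 0.51). In both sources the 3F-clones lay in a narrower band, within the range of the 4F-clones in PaS and partly above it in TTF. The SD of Acta2 was 1.36 in 4F-PaS against 0.33 in 3F-PaS clones, and 1.51 in 4F-TTF against 0.46 in 3F-TTF clones (n = 5 each).

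The probes of Acta2 disagreed in size. A second probe, further 3' on the gene, gave 2.23 over the 3 sources (limma, adjusted p = 0.0041), close to the 2.05 of the probe used here. A probe on chr19:33949738-33952992 (mm7, minus strand), whose 60 bases span an intron, gave 0.34 (limma, adjusted p = 0.060) and ranged over the 30 clones from 3.30 to 5.22, against 1.46 to 7.75 for the probe used. On the EB-3 array this probe, at 3.81, lay inside its own range over the clones, while the probe used, at -1.46, lay below all 30. In RF8 cells both lay below all 30 clones, at 2.72 and 1.39. Of the remaining 2 Acta2 probes, which entered no test, 1 was well above background in 15 of 30 clones and 1 in none. The sequence of the intron-spanning probe is shown because actin coding sequences are closely alike, and no transcript set was used here to test whether other actins bind it.
Acta2 coding probe: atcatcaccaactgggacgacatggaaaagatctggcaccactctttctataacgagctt

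Actg2, the enteric smooth muscle gamma-actin, has 1 probe. Its levels were 1.02 to 1.78 in 4F-OP clones and 1.25, 3.51, 2.07, 2.97 and 3.30 in 3F-OP #1 to #5, a difference of 1.16 (limma, adjusted p = 0.027). As for Acta2, 3F-OP #1 was the lowest 3F-OP clone. In PaS- and TTF-iPS clones the differences were 0.51 and 0.57, neither of which passed the test.

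Tagln, transgelin, an early marker of smooth muscle differentiation, followed Acta2 clone by clone. Its levels in 4F-OP #1 to #5 were 2.18, 2.94, 2.72, 4.73 and 5.15, against 4.10, 7.35, 4.85, 6.83 and 7.17 in 3F-OP #1 to #5, a difference of 2.52 (standard error 0.70; limma, adjusted p = 0.027). The clones that were high for Acta2, 3F-OP #2, #4 and #5, were the high ones here too. Over the 3 sources the difference was 1.75, and a second Tagln probe gave 2.00 (limma, adjusted p = 0.0034).

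Cnn1, calponin, a marker of more mature smooth muscle, separated the TTF-iPS groups without overlap, as did Des, and 9.56% of all tested probes had every 3F-TTF clone above every 4F-TTF clone. No member did so in OP-iPS clones, against 2.31% of all probes. In 4F-TTF #1 to #5 it was at -0.04, 0.63, 0.96, -0.11 and 0.78, and in 3F-TTF #1 to #5 at 2.05, 2.36, 2.09, 1.80 and 1.38. The difference of 1.49 did not pass the threshold in a fit where all groups share 1 spread (limma, adjusted p = 0.099). In OP-iPS clones the levels were -1.80, 0.59, -1.21, 0.60 and 0.73 in 4F-OP #1 to #5 and 1.22, 3.20, 0.67, 3.004 and 3.24 in 3F-OP #1 to #5, a difference of 2.48 (standard error 0.58; limma, adjusted p = 0.012). In PaS-iPS clones the 3F-clones, at -0.18 to 0.19, lay inside the range of the 4F-clones, at -1.31 to 0.87.

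Both myosin subunits were called over the 3 sources. Myl9, the light chain, was the 1 gene of the 10 whose PaS-iPS groups did not overlap, where every 3F-clone lay above every 4F-clone in 1.31% of all tested probes. Its levels were 2.86, 4.11, 4.15, 1.26 and 4.37 in 4F-PaS #1 to #5 and 4.38, 5.06, 5.45, 5.36 and 5.06 in 3F-PaS #1 to #5. That difference, 1.71 with a standard error of 0.57, did not pass the test (limma, adjusted p = 0.16), and the gap between 4F-PaS #5 and 3F-PaS #1 was small. In TTF-iPS clones the Myl9 difference was 0.20, with the ranges 4.91 to 5.58 in 4F- and 4.20 to 5.83 in 3F-clones. Without 4F-PaS #4, the lowest clone, the mean over the 3 sources fell from 1.16 to 0.98 and was no longer called.

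Myh11, the heavy chain of mature smooth muscle, was dim in every group of clones. In 4F-OP #1 to #5 it was at -5.84, -5.95, -5.70, -4.36 and -3.58, and in 3F-OP #1 to #5 at -4.76, -1.48, -2.999, -2.60 and -1.52, a difference of 2.41 (standard error 0.66; limma, adjusted p = 0.024). The clone 4F-TTF #3, at -1.07, had the highest level of all 30 clones, while the other 4F-TTF clones were at -5.59 to -4.06. Without that clone the TTF difference rose from 1.07 to 1.85 and was called.

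Of the tropomyosins, Tpm2 was called in OP-iPS clones and over the 3 sources, and Tpm1 in neither. Tpm2 was at 0.67, 1.66, 2.32, 3.30 and 2.49 in 4F-OP #1 to #5 and at 2.52, 4.41, 3.70, 4.18 and 4.35 in 3F-OP #1 to #5, a difference of 1.74 (standard error 0.42; limma, adjusted p = 0.014). Only 4F-OP #4 exceeded the lowest 3F-OP clone. Tpm1, which non-muscle cells also make, spanned 3.49 to 5.33 over the 30 clones, and its other 2 probes gave differences of 0.75 and 0.66 over the 3 sources against 0.51 for the probe used. A second Tpm2 probe gave 0.96 over the 3 sources (limma, adjusted p = 0.0017), just under the 2-fold minimum, against 1.14 for the probe used. One Tpm1 probe (chr9:67064287-67065357, mm7, minus strand) and the Tpm2 probe used (chr4:43533092-43533242, mm7, minus strand) are shown because their sequences overlap. Capitals mark the 27 of 33 overlapping bases (81.8%) that are identical, so that these readings may not be wholly separate measurements.
Tpm1 probe: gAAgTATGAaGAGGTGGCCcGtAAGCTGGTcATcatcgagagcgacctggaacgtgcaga
Tpm2 probe: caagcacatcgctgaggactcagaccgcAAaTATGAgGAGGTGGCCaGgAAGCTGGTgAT

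Des, desmin, was the gene with the smallest adjusted p over the 3 sources, a difference of 1.52 with a standard error of 0.28 (limma, adjusted p = 0.00053, and 0.024 with the slide as a random block). In 4F-TTF #1 to #5 it was at -2.57, -1.51, -0.65, -1.67 and -2.04, and in 3F-TTF #1 to #5 at 0.11, 0.20, 0.51, 0.51 and 1.23, with no overlap. The TTF difference was 2.20 (standard error 0.48; limma, adjusted p = 0.0056), a 4.59-fold change. With the slide as a random block the adjusted p was 0.24. With the slide as a fixed block the difference was 0.73. That fit rests on 1 clone a group, 4F-TTF #5 and 3F-TTF #1, linked through PaS- and OP-iPS clones. The other TTF-iPS clones lay on slides that held no other group.

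In the other sources Des moved the same way without passing the test. It was at -1.72, -0.90, -0.17, -1.92 and 0.62 in 4F-PaS #1 to #5 and at 0.37, 0.21, 0.81, 0.38 and 0.57 in 3F-PaS #1 to #5 (1.29; limma, adjusted p = 0.18). The 5 3F-PaS clones fell between 0.21 and 0.81 while the 4F-PaS clones covered a range from -1.92 to 0.62. In OP-iPS clones the difference was 1.08 (limma, adjusted p = 0.16), with 3F-OP #1, at -1.83, below 4 of the 5 4F-OP clones.

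Cald1, caldesmon, did not pass in any source, with differences of 0.30, 0.41 and 0.05 in PaS-, OP- and TTF-iPS clones. Its 30 clones spanned -1.41 to 0.56. A second Cald1 probe gave 0.42 over the 3 sources (limma, adjusted p = 0.29).

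In OP-iPS clones the count of called genes rested on single clones. It was 6 with all clones and 0 without 4F-OP #1, 2 without 3F-OP #2 or 3F-OP #5, 3 without 3F-OP #4 or 4F-OP #3, and 8 without 3F-OP #1. It was 0 without 4F-OP #1 and #3, the clones that lacked Nanog signal, and 4F-TTF #1. In that last comparison the Acta2 difference was 2.41 and that of Cnn1 1.63, and without 4F-OP #2 as well they were 1.16 and 1.60. The mean over the 3 sources kept 6 or 7 called genes when any 1 of the 30 clones was left out.

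Ordered by group means, 3F-OP was highest for 6 genes, and 4F-PaS was lowest for 5 and 4F-OP for 4. Neighbours in these orders were mostly not apart: of the 50 gaps between neighbouring groups, 5 exceeded the larger of the 2 SDs. For Acta2 the means were 3.14 ± 1.93 in 4F-OP, 3.77 ± 1.36 in 4F-PaS, 4.17 ± 1.51 in 4F-TTF, 4.86 ± 0.33 in 3F-PaS, 5.99 ± 0.46 in 3F-TTF and 6.37 ± 1.47 in 3F-OP clones (SD, n = 5).

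The source of the clones did not give a called difference in any contractile gene. Between PaS- and OP-iPS clones limma called none of the 10 (2 at an unadjusted p under 0.05; adjusted p 0.0755 to 0.94), against 1.6% of all probes. Between PaS- and TTF-iPS clones it called none (3 at an unadjusted p under 0.05), against 0.5%, and between OP- and TTF-iPS clones none (0 at an unadjusted p under 0.05), against 0.0217%. The largest of these differences was in Cnn1, which was 1.34 lower in PaS- than in TTF-iPS clones (standard error 0.41; limma, adjusted p = 0.097). In a fit of the 30 clones without the ES arrays, Cnn1 was called lower in PaS-iPS clones than in both other sources, and also called higher in 3F-TTF clones.

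PaS cells themselves had more contractile gene signal than the clones made from them. On the single PaS array 9 of 10 genes were at least 2-fold above the mean of the 10 PaS-iPS clones, and each of these 9 lay above every PaS-iPS clone. Of all probes 20.5% were at least 2-fold higher, and 28.5% lay above every PaS-iPS clone. Cnn1 was at 3.83 against -1.31 to 0.87 in the clones, a 15.8-fold difference from their mean. Acta2 was at 7.75 against 1.72 to 5.35 (10.8-fold), Tpm2 at 6.78 against 2.07 to 4.51 (9.87-fold) and Actg2 at 4.44 against 0.49 to 2.14 (8.62-fold). In bulk samples such as these, fewer cells of a type and less RNA per cell cannot be told apart. The source arrays were also hybridised on another slide and session from the clones, so that slide and cell type cannot be told apart in these comparisons, which have 1 array a source and no test.

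OP and TTF cells did not share this pattern. In OP cells 4 genes were at least 2-fold above their clones, namely Cald1 (2.59 against -0.75 to 0.56), Tpm2, Cnn1 and Tpm1, where 24.9% of all probes were. Cnn1, at 2.05, was above the mean of the OP-iPS clones but below 3 of the 10. In TTF cells none was, where 23.8% of all probes were, and Acta2 at 4.75 and Tagln at 5.07 lay inside the range of the TTF-iPS clones. That array also carried the blood cell genes given above, whose part in these levels was not tested. The median difference of the 10 genes from the own clones was 2.71 in PaS, 0.64 in OP and -0.36 in TTF cells.

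Des was lower in the source cells than in every clone, whichever the source. It was at -5.17 in PaS, -5.48 in OP and -6.99 in TTF cells, the last not well above background, while the 30 clones lay between -2.57 and 1.26. Against their own clones PaS cells were 31.9-fold and OP cells 34.9-fold lower, and TTF cells at least 65.4-fold lower when the dimmest signal well above background is put in place of their reading. Both ES arrays, at -2.47 and -2.28, lay above the source cells and within the lower part of the clones. Myh11 was 4.21-fold lower in OP cells (-5.95) and 2.16-fold lower in TTF cells (-4.76) than the mean of their clones, and 3 of the 10 TTF-iPS clones lay below the TTF cells. Of all probes 22.9%, 20.3% and 23.1% were at least 2-fold lower in PaS, OP and TTF cells, and of the 10 genes 1, 2 and 2 were.

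Probes of 1 gene disagreed in part between source cells and clones for Tpm1 and Cald1, where each probe is set against its own range over the 30 clones. The Tpm1 probe used was at 6.32 in PaS cells, above its range of 3.49 to 5.33, and a second Tpm1 probe, at 4.999 in PaS cells, was at the top of its range of 2.82 to 5.01. The third, designed on a different transcript, lay below its range of 1.38 to 4.58 in all 3 source cells, at 0.89 in PaS, 0.40 in OP and -0.90 in TTF cells. The Cald1 probe used was above its range in PaS cells, at 2.04, and in OP cells, at 2.59. The second Cald1 probe was above its range of -2.23 to 0.61 in OP cells, at 1.54, and inside it in PaS cells, at -1.32. Both genes make several transcripts.

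**Figure D3:**
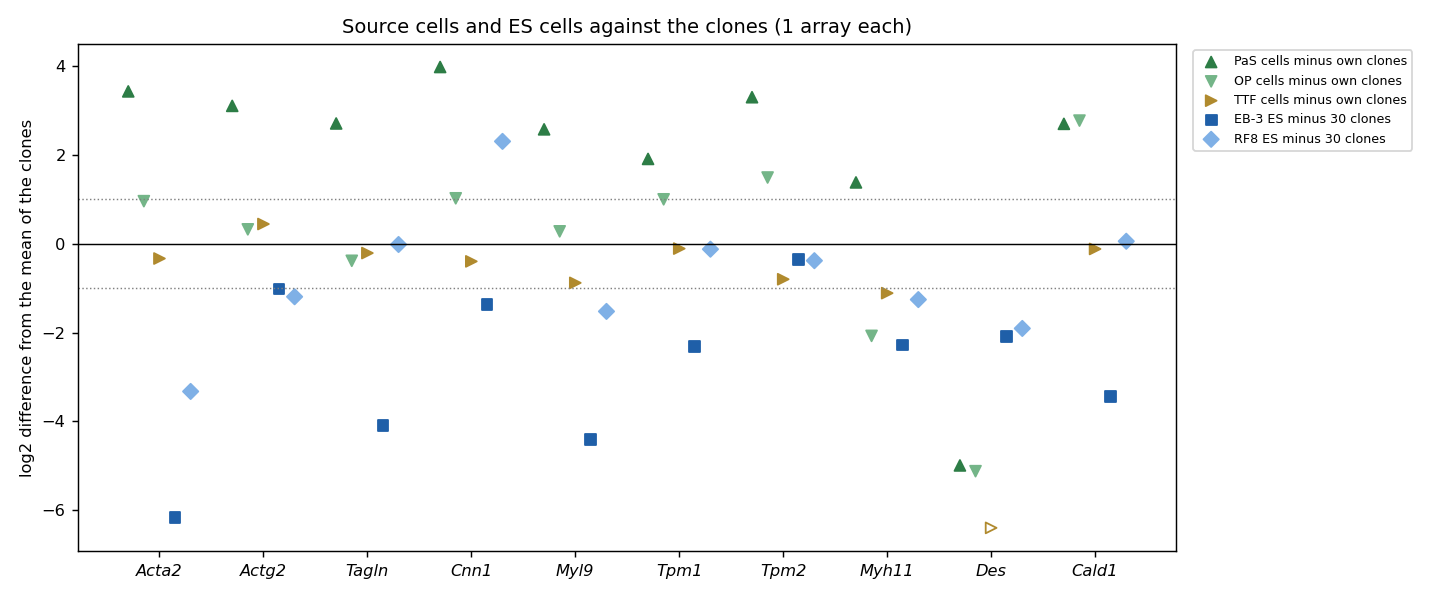
Difference in level (log2) of each source cell array from the mean of the 10 clones made from it, and of each ES array from the mean of the 30 clones, for the 10 contractile genes, with dotted lines at 2-fold. The PaS array lies above 1 for 9 genes, the 3 source arrays lie near -5 or below for Des (open symbol, not well above background), and the EB-3 array lies below -1 for 9 genes.

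The 2 ES lines differed from each other. In EB-3 cells 9 of 10 genes fell short of the average clone by 2-fold or more (19% of all probes did) and 6 lay below every clone (19.3% of all probes did), with Acta2 at -1.46 against 1.46 to 7.75 in the clones (72.1-fold lower), Myl9 at 0.29 and Tagln at 0.82. None was higher, where 25.9% of all probes were. In RF8 cells 5 genes were lower (15.3% of all probes were) and Cnn1, at 2.99, was 4.95-fold higher (28.3% of all probes were higher). EB-3 was below RF8 by 16.9-fold in Tagln, 12.7-fold in Cnn1 and 11.3-fold in Cald1, while Tpm2 (2.84 in EB-3 and 2.82 in RF8), Des (-2.47 and -2.28) and Actg2 (0.77 and 0.59) lay close together. Col1a1 differed between the lines in the same direction, as given above, and its part in this was not tested. Slide and line cannot be told apart here.

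Contractile genes went together from clone to clone. Over the 30 clones the 45 pairs of the 10 genes had a median Pearson r of 0.70 and a range of 0.28 to 0.97, where 1.35% of the correlations of these 10 with all other tested probes reached that median, and 42 of 45 had an adjusted permutation p under 0.05 for both r and Spearman's rho. The 3 that did not were Cald1 with Tpm2, Myh11 and Des. Acta2 and Tagln were the closest pair (r = 0.973, rho = 0.949, each with p = 1e-05, the smallest that 100000 permutations give, adjusted 2.2e-05 and 3.0e-05), and r was 0.969 without the 2 clones farthest from the median Acta2 level. After subtracting slide means the median r over the 45 pairs was 0.57, with a range of -0.16 to 0.96, and after subtracting group means it was 0.65. These genes are known to share regulators, and the 10 are not independent replicates.

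The contractile genes also went with the fibroblast collagen Col1a1, and a relation with Nanog was not shown. Against Col1a1, 10 of 10 had an adjusted permutation p under 0.05, with a median r of 0.74 from Cald1 at 0.42 to Tagln at 0.93 (median 0.66 within slides). Of the other 27507 tested probes with a value in every clone, 15.02% had an r with Col1a1 of at least 0.42 and 1.44% of at least 0.74. Without the 2 clones farthest from the median the r of Cald1 was 0.26, so that this relation rests on those clones. Against Nanog, over the 27 clones where it was well above background, none of 10 passed, with r between -0.35 and 0.43, and between -0.44 (Cald1) and 0.62 (Tpm2) within slides. The 3 clones left out had the lowest Nanog readings, so that this test covers a narrower range and cannot decide on a relation with Nanog over all 30. For Acta2 r was 0.43, 0.50 within slides and 0.61 within groups of clones. Col1a1 itself was 1.41 higher in 3F-clones over the 3 sources (standard error 0.54; limma, adjusted p = 0.062). Its lowest clones, at 1.61 in 4F-OP #1, 1.65 in 4F-OP #2, 1.68 in 4F-TTF #1 and 1.98 in 4F-OP #3, were among the 5 lowest for Acta2. The share of feeder or other fibroblasts in each culture was not measured, and its part in these levels was not tested.

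**Figure D4:**
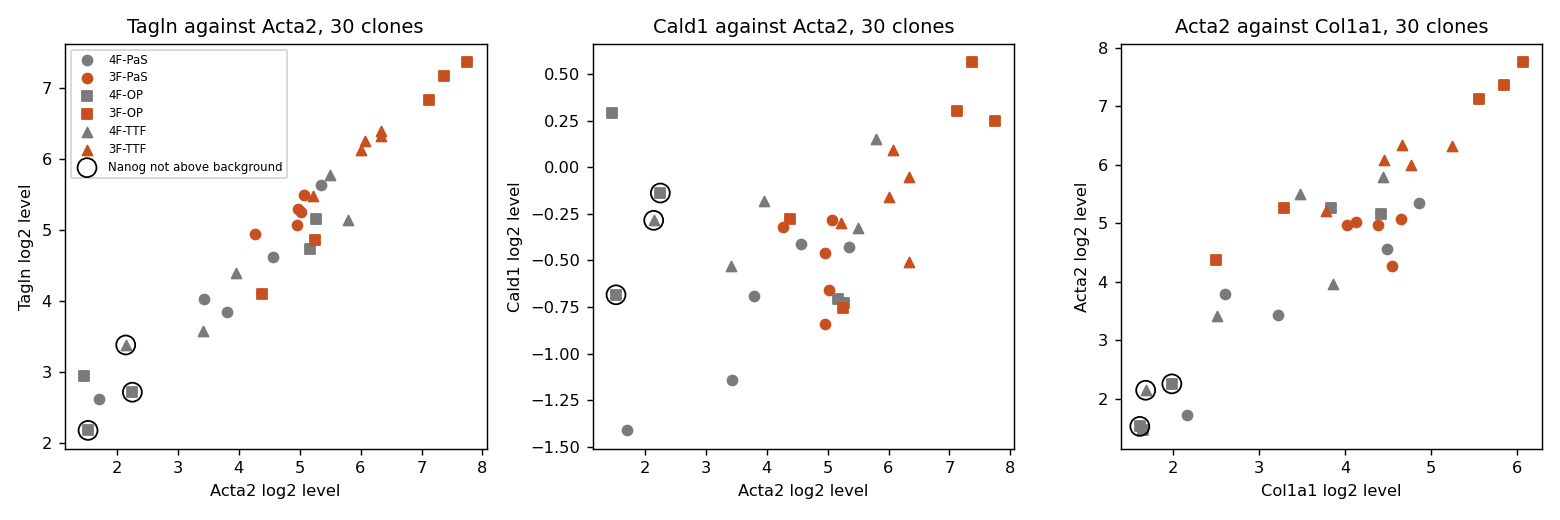
Level of Tagln and of Cald1 against Acta2, and of Acta2 against Col1a1 (all log2), 1 point a clone, with 4F-clones in grey, 3F-clones in orange and circles around the 3 clones without Nanog signal. Tagln lies close to a line on Acta2 (r = 0.973), Cald1 is scattered (r = 0.446), and Acta2 rises with Col1a1 (r = 0.918).

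Because the 10 genes went together, the 250 bases before annotated start sites were read for 7 of them from a table of RefSeq promoters (GRCm38.p6). Actg2, Tagln and Myh11 were not analysed here. The letters searched on both strands were the CArG box (CC, 6 of A or T, GG), a CArG-like form with at most 1 other base among the 6, CATTCC and TATAAA. The CArG box occurred in Myl9 alone, at -161 to -152 from the start, against 1.63% of all 32851 promoters of this length. The CArG-like form, which includes the CArG box, occurred in Myl9 and Acta2, against 9.98% of all promoters. CATTCC occurred in Acta2, Tpm1 and Cald1 (14.7% of all) and TATAAA in a second Cald1 promoter (13.6%). Acta2 and Myl9 are shown for their matches, with CArG-like letters in capitals, and Cnn1 as a gene that moved with them with no match in this window.
Acta2, chr19:34255374-34255623, minus strand: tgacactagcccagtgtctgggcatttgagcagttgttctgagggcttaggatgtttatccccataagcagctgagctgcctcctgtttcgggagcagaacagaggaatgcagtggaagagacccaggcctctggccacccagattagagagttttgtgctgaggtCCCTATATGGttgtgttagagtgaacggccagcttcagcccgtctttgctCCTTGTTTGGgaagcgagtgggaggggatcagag
Myl9, chr2:156775214-156775463, plus strand: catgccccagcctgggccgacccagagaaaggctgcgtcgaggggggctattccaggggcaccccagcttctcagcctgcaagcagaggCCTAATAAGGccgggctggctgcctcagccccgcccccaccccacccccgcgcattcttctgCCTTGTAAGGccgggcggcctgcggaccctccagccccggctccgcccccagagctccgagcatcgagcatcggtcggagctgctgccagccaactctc
Cnn1, chr9:22099003-22099252, plus strand: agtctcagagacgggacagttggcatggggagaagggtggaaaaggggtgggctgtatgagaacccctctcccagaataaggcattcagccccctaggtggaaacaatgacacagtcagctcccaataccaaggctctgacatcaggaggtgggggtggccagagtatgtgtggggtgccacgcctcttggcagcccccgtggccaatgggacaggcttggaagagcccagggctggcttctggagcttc

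Outside the 10 genes, a minority of the contractile machinery was called. Of 23 other actomyosin genes tested, 4 were called higher in 3F-clones over the 3 sources, where 4.27% of all probes were, with a median over the 23 of 0.34: Mylk (1.97), the kinase that phosphorylates the myosin light chain, Actc1 (1.74) and Acta1 (1.59), the cardiac and skeletal actins, and Lmod1 (1.42), a smooth muscle actin nucleator. Among the 19 that were not called, Actb was at -0.17, Myl6 at -0.10, Myh9 at 0.15 and Tpm4 at 0.17, values chosen after they were seen. Within single sources, Actc1 (2.76) and Synpo2 (1.63), an actin-bundling protein, were called in OP-iPS clones, and Synpo2 (1.68) in TTF-iPS clones. Of all probes 3.94% and 3.97% were called higher there. None of these actomyosin calls was left with the slide as a random block, the adjusted p of the 4 lying between 0.065 and 0.28. Of the 20 regulators tested, 19 were not called over the 3 sources, with a median over the 20 of 0.25. Srf was at 0.42 (limma, adjusted p = 0.090) and its partner Myocd, well above background in 16 of 30 clones, at 0.17.

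Some markers of other cell types were called in the same comparison. Of 14 fibroblast markers, 2 were called higher in 3F-clones over the 3 sources, Postn (1.88) and Col5a1 (1.06), with a median of 0.70 over the list. Their summed level was 7.25 to 8.45 in 4F-OP and 7.15 to 8.73 in 3F-OP, 7.71 to 7.97 in 4F-PaS and 7.82 to 7.99 in 3F-PaS, and 7.83 to 8.99 in 4F-TTF and 7.43 to 8.18 in 3F-TTF clones. Of 6 pericyte markers 4 were tested and 2 were called, Kcnj8 (1.46) and Mcam (1.09). Rgs5, well above background in 2 of 30 clones, did not pass the filter and was not tested. Of all probes 4.27% were called higher in this comparison. Of the calls of Postn, Col5a1, Kcnj8 and Mcam, that of Mcam was the 1 left with the slide as a random block (limma, adjusted p = 0.048). The summed level of the 6 pericyte markers was 1.83 to 3.69 in 4F-OP and 3.55 to 4.14 in 3F-OP, 2.41 to 3.21 in 4F-PaS and 2.49 to 3.91 in 3F-PaS, and 2.61 to 3.28 in 4F-TTF and 3.52 to 3.85 in 3F-TTF clones. None of 6 striated muscle markers was called. The summed level of the 9 on the array was 0.52 to 1.21 in 4F-TTF and 1.25 to 1.83 in 3F-TTF, -0.57 to 1.15 in 4F-PaS and 0.92 to 2.42 in 3F-PaS, and 0.85 to 1.196 in 3F-OP clones. In 4F-OP clones it was -0.26 to 1.14 but for 4F-OP #2, at 3.96, the highest of the 30 clones. Myod1, the skeletal muscle determination factor, was not well above background in any clone, nor was Ptprc. Of 4 osteoblast markers, 2 or 3 were well above background in a clone. Their summed level was -1.28 to -0.83 in 4F-OP and -0.38 to 0.06 in 3F-OP, -1.53 to -0.39 in 4F-TTF and -0.79 to 0.11 in 3F-TTF, and -1.33 to 0.51 in 4F-PaS and -0.66 to -0.20 in 3F-PaS clones. That of 6 blood cell markers, of which 2 or 3 were well above background in a clone, was 0.43 to 2.18 in 4F-PaS and 1.60 to 3.08 in 3F-PaS, 0.16 to 1.76 in 4F-OP and 1.52 to 1.90 in 3F-OP, and -0.72 to 1.19 in 4F-TTF and 0.27 to 2.55 in 3F-TTF clones. The part of these cell types in the contractile gene levels was not tested.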

How the data were processed

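Total RNA was labelled with Cy3 and hybridised to 1-colour Agilent whole mouse genome arrays (probe coordinates on mm7), and the authors read the scans with Feature Extraction (10.5.1.1 for the clones, 10.7.3.1 for EB-3 and source cells, 9.5.3.1 for RF8). The deposited files hold each spot's processed signal intensity, background-subtracted by that software, and the authors' table of log2 values, which followed the values used here with slopes and correlations of 1.00 over 18968 probes and with column medians of -0.63 to 0.25. It gave the same counts of called contractile genes.

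From the processed intensities, outlier spots (54 to 152 of 43379 gene spots per array) were left out, replicate spots averaged, log2 taken and each array's 75th percentile subtracted. The number of arrays limits the precision; median intensities per array were 26.9 to 69.5, and 56.6% to 71.1% of gene probes were well above background. Probes well above background on all arrays of at least 1 group were tested with limma 3.58.1 (R 4.3.3) in 1 fit of 32 arrays and 7 groups, both ES arrays forming 1 group. Permutation tests used 100000 resamples (scipy 1.17.1). On simulated data, 85% of 200 probes changed 4-fold were recovered in the PaS, 82.5% in the OP and 79% in the TTF comparison of 3F and 4F, and 95.5% in the mean over sources. The simulated noise was independent between arrays, with 1 SD per probe and no slide effect. These shares therefore do not cover the correlation within slides or the unequal spread of the groups.

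The 10 genes and the gene lists were chosen with earlier results of these data known. Named are the 10 genes, called genes of the lists (at most 4 a list and comparison), defining markers and the 10 genes most like the 10; Actb, Myl6, Myh9, Tpm4, Srf, Myocd, Rgs5, Myod1, Sox2 and Emr1 values outside these were chosen after seeing values. Alternatives covered background correction, scaling, filters, fold minimum, slide, clone number, other probes and single clones left out. Clone numbers did not pair the clones. Coordinates of promoters are GRCm38.p6 and were not mixed with mm7. The call of 1 gene of the regulator list is not reported here.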

Additional observations from a re-analysis of the deposited data

Results flagged for a closer look

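In 3 of the 60 sets of 5 clones (10 genes in 6 groups), 1 clone stood so far from the other 4 that the gap exceeded Dixon's 95% critical value of 0.71 of the whole range, where chance gives about 1 in 20. Acta2 in 3F-PaS #4 was at 4.26 with the nearest clone at 4.97, Myl9 in 3F-TTF #5 was at 4.20 with the nearest at 5.52, and Des in 4F-OP #3 was at -2.19 with the nearest at -0.68. The clone 4F-OP #3 is one of the 3 whose Nanog signal was not well above background, and whether that is related was not tested.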

How the results depend on the processing

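The direction of every 3F minus 4F difference called in the report stayed the same under all alternatives run, and no alternative reversed one. The counts of called genes were 7 over the 3 sources, 6 in OP-, 1 in TTF- and 0 in PaS-iPS clones, and quantile normalization, the authors' table, the floor under dim signals and the mean of all probes left these 4 counts as they were. With the slide as a random block they were 1 over the 3 sources, 0 in OP- and 0 in TTF-iPS clones. The slide as a fixed block could be fitted only for PaS minus OP, where it gave 0, and for TTF-iPS clones, where it rests on 1 clone a group. Without the 3 clones that lacked Nanog signal, chosen after seeing the data, they were 4 over the 3 sources and 0 in OP-iPS clones, and without 4F-OP #2 as well 2 and 0. In the fit without ES arrays they were 2 in TTF-iPS clones, 1 for PaS minus OP and 1 for PaS minus TTF. Normexp background correction gave 6 over the 3 sources and 4 in OP-iPS clones, and no fold minimum gave 9 over the 3 sources. With the first other tested probe in place of the probe used, for genes that have more than 1, 3 calls of single genes were lost. For single arrays, normexp gave 1 gene lower in OP cells, 1 lower in TTF cells and 3 lower in RF8 cells, and quantile normalization gave 2 higher in OP cells. The causes were not tested.

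Leaving out 1 clone at a time gave 6 to 7 over the 3 sources, 0 to 8 in OP- and 1 to 2 in TTF-iPS clones (2 without 4F-TTF #3), and 0 in all other comparisons.

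Clone numbers were checked as pairs: among the 75 same-numbered pairs of clones from different groups, deviations from the group means correlated above 0.1 in 16 (median -0.00079), and 6 of 30 clones correlated best with their own number, so that they share only a number. With the clone number as a replicate block the counts were again 7, 6, 1 and 0.

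Over all probes, the calls in 3F minus 4F were 1475 over the 3 sources, 1246 in OP, 1595 in TTF and 5 in PaS. These totals became 395, 168, 7 and 0 with the slide as a random block, 415, 268, 481 and 177 with normexp, 478, 566, 671 and 0 for probes above background on all arrays, 5857, 2237 and 2790 (PaS within 1.5 times) with no fold minimum, 857, 168, 993 and 0 without the clones that lacked Nanog, and 962, 58, 1371 and 0 without 4F-OP #2 as well. The slide as a fixed block gave 5 in TTF, and the 5 calls in PaS became 0 with the floor under dim signals or the clone number as a replicate block and 3 in the fit without ES arrays. Between sources, the 443 calls for PaS minus OP and 138 for PaS minus TTF became 163 and 22 with normexp, 246 and 48 for probes above background on all arrays, 1019 and 359 with no fold minimum, and 15 and 75 without the clones that lacked Nanog. PaS minus OP became 277 with the slide as a fixed block and PaS minus TTF 6 with it as a random block. The 6 calls for OP minus TTF ranged from 0 to 16. The 179 calls for the difference of the OP and PaS effects ranged from 9 to 320, and the 161 for TTF and PaS from 0 to 365. Quantile normalization moved the share called higher from 87.2% to 67.2% in OP, from 68.7% to 51.9% in TTF, from 79.9% to 68.2% over the 3 sources and from 38.4% to 59.0% for PaS minus TTF. Normexp moved it to 67.7% over the 3 sources, from 50.8% to 64.4% for PaS minus OP and to 68.2% for PaS minus TTF. For the differences between effects, quantile normalization moved it from 72.1% to 45% (OP and PaS) and from 66.5% to 48.8% (TTF and PaS), and for OP minus TTF from 16.7% to 33.3%.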

Other observations

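The genes most like the 10 contractile genes from clone to clone were found by their correlation with the mean of the z-scored levels of the 10 over the 30 clones, among 14936 gene probes well above background in at least 24 clones. The closest were Actc1 (r = 0.926), a cardiac actin that fetal smooth muscle also makes, Lmod1 (0.924), a clone with no gene symbol (0.923), Igfbp7 (0.922), a secreted binder of insulin-like growth factors, and Thbs1 (0.913), a matrix glycoprotein that activates transforming growth factor beta. Col8a1 (0.895), a short-chain collagen, Siglecg (0.881), a sialic acid receptor of B cells, Postn (0.881), the matrix protein periostin, Nrp1 (0.880), a co-receptor for semaphorins and vascular endothelial growth factor, and Tmem119 (0.879) followed. Within slides these 10 stayed between r = 0.720 (Siglecg) and 0.938 (Postn). The points share slides, groups and the scale of each array, and these correlations are a description with no test.

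Other lists gave single calls beside the contractile genes. Bglap1, osteocalcin, was called higher in 3F- than in 4F-clones of OP (1.83) and TTF (1.71), and its effect differed from that in PaS-iPS clones by 2.41 (OP; limma, adjusted p = 0.041) and 2.30 (TTF; limma, adjusted p = 0.050). Zfp42, a pluripotency marker, was called higher in 3F- than in 4F-OP clones (2.41), and Ly6a was called lower in 3F- than in 4F-TTF clones, where it fell by 3.65 on the log2 scale. None of these calls was left with the slide as a random block, where the adjusted p of the Bglap1 difference from PaS-iPS clones was 0.058 (OP) and 0.90 (TTF). Between sources, Zfp42 (1.81) and Bglap1 (1.13) were called higher in PaS- than in OP-iPS clones. With the slide as a random block Zfp42 was still called, at 1.98 (limma, adjusted p = 0.045), and Bglap1 was not (limma, adjusted p = 0.054).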
